A study of Solanum lycopersicum with 12 samples.

Results

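The acyltransferase cluster of tomato chromosome 5 is taken here as the 6 loci from Solyc05g052640 to Solyc05g052690, which are 6 of the 33976 genes in the deposited table. It was selected on its own readout. In earlier results of these data, Solyc05g052650, Solyc05g052670 and Solyc05g052680 had lower transcript levels in edited leaves than in wild type leaves. For Solyc05g052670 the gap is clear in the edited line *slmyb60Cr1* alone. Because the cluster was selected in this way, the differences between the edited lines and the wild type are given as descriptions. Calls in these contrasts are counted but not read as tests. RNA was sequenced from leaves of 4 replicates of the line *slmyb60Cr1*, 4 of *slmyb60Cr2* and 4 of the wild type. Both lines are homozygous, Cas9-free descendants of Red Setter plants in which CRISPR/Cas9 had deleted parts of *SlMYB60* (Solyc10g081490), and each line carries 1 deletion allele. The wild type is unedited Red Setter, a processing cultivar. Each replicate is a pool of leaf discs from several plants. The labels give all 12 libraries a water stress treatment of 14 days without irrigation, which the methods of the study do not mention for the plants used for RNA.

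*SlMYB60* encodes an R2R3-type MYB transcription factor, whose Arabidopsis counterpart is known for its expression in guard cells, the paired cells around a stomatal pore. HXXXD-type acyltransferases, also called the BAHD family, are plant enzymes that move an acyl group from a coenzyme A thioester to an alcohol or an amine. Members of the family are known for making chlorogenic acid, acylsugars of glandular trichomes, volatile esters, cutin and suberin. Plant genomes often hold them as rows of related genes. The annotation used by the study names Solyc05g052650 and Solyc05g052680 as HXXXD-type acyltransferases. The sources used here pair Solyc05g052640, Solyc05g052660, Solyc05g052670 and Solyc05g052690 with no name, so no role is given for them, and their sequences and coordinates are not shown.

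Levels are in TPM, a transcript unit that corrects for length and sums to 1000000 in every library, so levels may be compared between genes. TPM keeps no read depth, so no counting error can be attached to a value. Fold changes are on the scale of log2(TPM + 0.1), which understates the change of genes with low levels, and come from one limma fit of the 12 libraries over the 21218 genes that reached 0.5 TPM in 4 or more libraries. All 6 loci passed this limit. A gene was called at a Benjamini-Hochberg adjusted p below 0.05 with a log2 fold change beyond 1 in size. The edited gene followed the labels, with *SlMYB60* at 2.19 ± 0.501 TPM in *slmyb60Cr1*, 2.70 ± 0.405 TPM in *slmyb60Cr2* and 16.5 ± 4.62 TPM in wild type leaves (mean ± SD, n = 4 each). The photosynthesis gene *CAB1B* averaged 5289 TPM in *slmyb60Cr1*, 4586 TPM in *slmyb60Cr2* and 6283 TPM in the wild type, and the fruit ripening gene *PG2a* was at 0 in all libraries of both lines and at 0.0323 TPM on average in the wild type. Another ripening gene, *E8*, was expressed at 8.15 ± 1.87 TPM in *slmyb60Cr1*, 7.13 ± 3.25 TPM in *slmyb60Cr2* and 8.05 ± 1.32 TPM in the wild type. The first principal component of all tested genes, with 26.4% of the variance, separated replicates 1 and 2 from replicates 3 and 4 within each genotype, a split that the labels do not name.

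In *slmyb60Cr1*, 4 consecutive loci of the 6, from Solyc05g052650 to Solyc05g052680, were lower than in the wild type, with means at 8.01% to 21.3% of the wild type mean. In *slmyb60Cr2*, Solyc05g052650, Solyc05g052660 and Solyc05g052680 had means at 17.3% to 26.1% of the wild type mean, whereas Solyc05g052670 was at 74.9%. The 2 outer loci, Solyc05g052640 and Solyc05g052690, had means at 89.3% to 116% of the wild type mean in both lines. The call thresholds were passed in the lower direction by 4 of the 6 loci in *slmyb60Cr1*, where 0.222% of all tested genes were called lower and 0.669% were called in either direction. In *slmyb60Cr2* they were passed by 2 of the 6, Solyc05g052650 and Solyc05g052680, where 0.273% of all tested genes were called lower and 1.4% in either direction. In *slmyb60Cr1*, Solyc05g052660 passed narrowly, close to the adjusted p threshold and with replicate 2 at 0 TPM. The contrasts with the wild type chose the cluster, so nothing is read from the counts. The median log2 fold change of the 6 loci was −2.38 in *slmyb60Cr1* and −1.19 in *slmyb60Cr2*, beside −0.02 and 0.04 over all tested genes in the same lines. In leaf tissue as a whole, fewer cells of a type and less RNA per cell cannot be told apart.

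Solyc05g052650, an HXXXD-type acyltransferase, had the lowest level of the 6 loci in each genotype. It was at 0.606, 0.495, 0.899 and 0.439 TPM in the 4 *slmyb60Cr1* libraries. In *slmyb60Cr2* it was at 0.283, 0.757, 1.53 and 1.498 TPM, against 5.47, 8.05, 3.61 and 4.00 TPM in the wild type. No library of either line reached the lowest wild type library, and within *slmyb60Cr2* replicates 3 and 4 were above replicates 1 and 2. The means were 0.610 ± 0.205 TPM in *slmyb60Cr1*, 1.02 ± 0.606 TPM in *slmyb60Cr2* and 5.28 ± 2.01 TPM in the wild type. The log2 fold change was −2.89 (standard error 0.44) in *slmyb60Cr1* and −2.41 (standard error 0.44) in *slmyb60Cr2*. With a pseudocount of 1 TPM it was −1.92 in *slmyb60Cr1* and −1.64 in *slmyb60Cr2*.

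Solyc05g052680, the other locus annotated as an HXXXD-type acyltransferase, was more abundant. It was at 4.35, 5.16, 4.055 and 2.21 TPM in *slmyb60Cr1*. In *slmyb60Cr2* it was at 5.10, 7.598, 3.61 and 3.02 TPM, against 21.6, 24.7, 13.5 and 14.2 TPM in the wild type. All 8 edited libraries lay below the lowest wild type library, and in every genotype replicates 3 and 4 lay below replicates 1 and 2. The means were 3.94 ± 1.24 TPM in *slmyb60Cr1*, 4.83 ± 2.04 TPM in *slmyb60Cr2* and 18.5 ± 5.51 TPM in the wild type. The log2 fold change was −2.22 (standard error 0.33) in *slmyb60Cr1* and −1.95 (standard error 0.33) in *slmyb60Cr2*.

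Solyc05g052660, which lies between Solyc05g052650 and Solyc05g052670 in identifier order, had the largest SD of the 6 loci among wild type libraries. It was at 4.28, 0, 1.24 and 1.18 TPM in *slmyb60Cr1*. In *slmyb60Cr2* it was at 2.15, 6.36, 4.35 and 1.60 TPM, against 23.5, 35.3, 14.1 and 10.8 TPM in the wild type. The groups did not overlap in either line, and replicate 2 held the lowest value of *slmyb60Cr1* and the highest of *slmyb60Cr2* and of the wild type. Its log2 fold change was −4.35 (standard error 0.94) in *slmyb60Cr1* and −2.55 (standard error 0.94) in *slmyb60Cr2*. The value for *slmyb60Cr1* depends on the pseudocount because replicate 2 is listed at 0, and it lay between −5.23 and −3.15 over the alternative settings. Without *slmyb60Cr1* replicate 2 the log2 fold change of this locus was −3.27 in *slmyb60Cr1*.

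Solyc05g052670 had the highest level of the 6 loci in wild type leaves and was the locus on which the lines parted. It was at 3.93, 4.15, 8.08 and 6.77 TPM in *slmyb60Cr1*. In *slmyb60Cr2* it was at 17.1, 23.3, 25.5 and 34.1 TPM, against 41.9, 39.8, 25.6 and 26.4 TPM in the wild type. All *slmyb60Cr1* libraries lay below all others, whereas *slmyb60Cr2* overlapped the wild type, its replicate 4 lying above wild type replicates 3 and 4. The means were 5.73 ± 2.03 TPM in *slmyb60Cr1*, 25.0 ± 7.01 TPM in *slmyb60Cr2* and 33.4 ± 8.61 TPM in the wild type. The log2 fold change was −2.55 (standard error 0.28) in *slmyb60Cr1* and −0.42 (standard error 0.28) in *slmyb60Cr2*. The share of all tested genes whose edited libraries all lay below every wild type library was 5.87% in *slmyb60Cr1* and 4.96% in *slmyb60Cr2*, and among the 6 loci 4 did so in *slmyb60Cr1* and 3 in *slmyb60Cr2*.

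**Figure D1:**
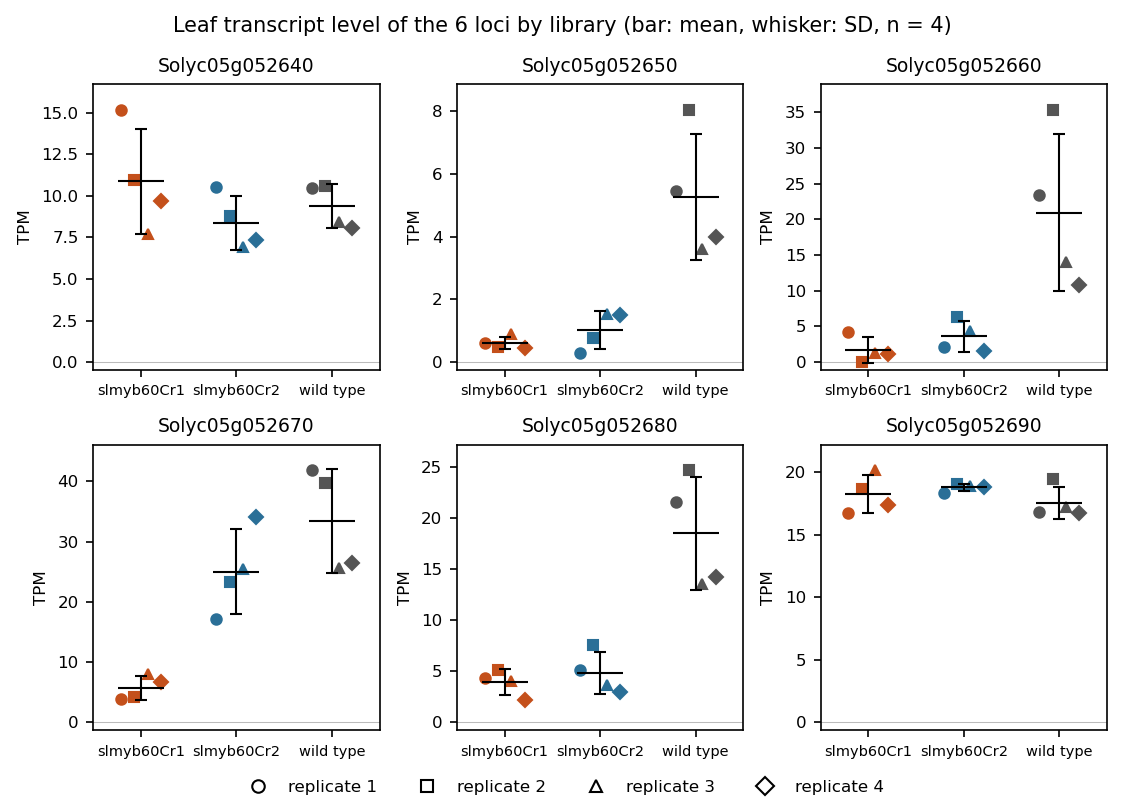
TPM of each of the 6 loci (vertical axis, linear, a separate scale for each panel) in the 4 libraries of *slmyb60Cr1*, *slmyb60Cr2* and the wild type, with the mean (bar) and SD (whisker) and a marker shape for each replicate number. Solyc05g052670 averages 5.73 TPM in *slmyb60Cr1*, 25.0 TPM in *slmyb60Cr2* and 33.4 TPM in the wild type, while Solyc05g052690 averages 18.2, 18.8 and 17.5 TPM in the same order of groups.

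At either end of the cluster, levels stayed closer to those of the wild type. Solyc05g052640 ranged over 7.70 to 15.2 TPM in *slmyb60Cr1*, 6.92 to 10.5 TPM in *slmyb60Cr2* and 8.08 to 10.6 TPM in the wild type, and its log2 fold change was 0.18 (standard error 0.20) in *slmyb60Cr1* and −0.17 (standard error 0.20) in *slmyb60Cr2*. Solyc05g052690 was steadier, at 16.7 to 20.2 TPM in *slmyb60Cr1*, 18.3 to 19.0 TPM in *slmyb60Cr2* and 16.7 to 19.4 TPM in the wild type. Its log2 fold change was 0.05 in *slmyb60Cr1* and 0.10 in *slmyb60Cr2* (standard error 0.07 each). Groups overlapped at both loci. Just outside the cluster, Solyc05g052630 averaged 129 ± 16.3 TPM in *slmyb60Cr1*, 121 ± 12.3 TPM in *slmyb60Cr2* and 138 ± 13.0 TPM in the wild type. On the other side, Solyc05g052700 averaged 12.9 ± 1.37 TPM in *slmyb60Cr1*, 13.1 ± 0.493 TPM in *slmyb60Cr2* and 10.7 ± 0.899 TPM in the wild type. All its edited libraries lay above every wild type library, with means at 121% (*slmyb60Cr1*) and 123% (*slmyb60Cr2*) of the wild type mean. It was not called (limma adjusted p = 0.141 in *slmyb60Cr1* and 0.0662 in *slmyb60Cr2*).

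Set against each other, the edited lines show which loci differ with the same gene edited. This contrast did not itself choose the cluster, but it shares its libraries with those that did and is not free of the choice. Choosing Solyc05g052670 for low levels, which it had in *slmyb60Cr1*, also favours a higher value of *slmyb60Cr2* minus *slmyb60Cr1*. Solyc05g052670 was higher in *slmyb60Cr2* than in *slmyb60Cr1*, with a log2 difference of 2.13 (standard error 0.28, 95% interval 1.52 to 2.74, limma adjusted p = 0.0153). It was the only one of the 6 loci called, where 0.0848% of the tested genes were called higher in *slmyb60Cr2* and 0.151% in either direction. The calls over all tested genes split into 18 higher and 14 lower, or 14 higher and 17 lower with median-of-ratios scaling. The lowest *slmyb60Cr2* library lay above the highest *slmyb60Cr1* library, which held for 7.79% of the tested genes, and among the cluster for this locus alone. Solyc05g052670 had already been singled out with its values known, so the p is not independent evidence. The call was lost when only the 8 libraries of both lines were fitted (adjusted p = 0.0534), without *slmyb60Cr1* replicate 2 (adjusted p = 0.0541) and without *slmyb60Cr2* replicate 2 (adjusted p = 0.0501), among alternatives that gave adjusted p values of 0.0115 to 0.0541 and log2 differences of 1.96 to 2.31.

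The other 5 loci did not pass the test between the lines. The log2 difference, *slmyb60Cr2* minus *slmyb60Cr1*, was 1.80 for Solyc05g052660 (95% interval −0.28 to 3.87, limma adjusted p = 0.416). For the annotated acyltransferases it was 0.48 for Solyc05g052650 (95% interval −0.50 to 1.46, adjusted p = 0.658) and 0.26 for Solyc05g052680 (95% interval −0.46 to 0.98, adjusted p = 0.757). The interval of Solyc05g052660 spans a wide range of differences, so the lines are not shown to be alike there. At the ends of the cluster the difference was −0.35 for Solyc05g052640 (95% interval −0.79 to 0.09, adjusted p = 0.457) and 0.05 for Solyc05g052690 (95% interval −0.11 to 0.20, adjusted p = 0.809).

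The proportions among the loci also differed between genotypes in these libraries, and between replicates within the edited lines. The TPM ratio of Solyc05g052670 to Solyc05g052680 was 0.904, 0.804, 1.99 and 3.06 in the *slmyb60Cr1* libraries. It was 3.36, 3.07, 7.06 and 11.3 in *slmyb60Cr2*, against 1.94, 1.61, 1.89 and 1.86 in the wild type. The wild type libraries thus held a nearly fixed ratio, every *slmyb60Cr2* library lay above it, and the *slmyb60Cr1* libraries lay on both sides of it. The ratio of Solyc05g052650 to Solyc05g052680 was 0.253 to 0.326 in the wild type, where *slmyb60Cr1* had 0.0960 to 0.222. In *slmyb60Cr2* it was 0.0555 and 0.0997 in replicates 1 and 2, below the wild type range. It was 0.424 and 0.496 in replicates 3 and 4, above that range. Of the summed TPM of the run from Solyc05g052650 to Solyc05g052680, Solyc05g052670 made up 48.2% ± 15.1 in *slmyb60Cr1*, 72.1% ± 9.76 in *slmyb60Cr2* and 43.7% ± 4.72 in the wild type (mean ± SD, n = 4 each). Solyc05g052680 made up 33.7% ± 13.6 in *slmyb60Cr1*, 14.6% ± 6.69 in *slmyb60Cr2* and 23.9% ± 1.19 in the wild type. The levels of neighbouring genes of 1 family are uncertain where they share reads, since Salmon divides such reads among them.

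**Figure D2:**
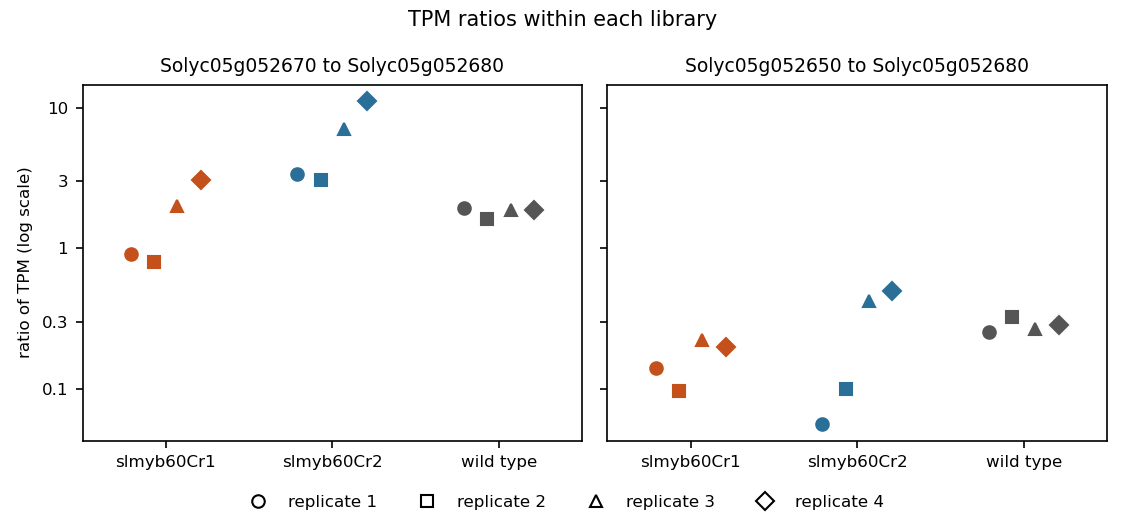
Ratio of TPM within each library (vertical axis, log scale) for Solyc05g052670 to Solyc05g052680 and for Solyc05g052650 to Solyc05g052680, by genotype, with a marker shape for each replicate number. The first ratio runs from 0.804 to 3.06 in *slmyb60Cr1*, from 3.07 to 11.3 in *slmyb60Cr2* and from 1.61 to 1.94 in the wild type.

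A sum over the loci keeps reads that were divided among them. As TPM corrects for length, reads moved between loci of unequal length would still alter the sum. The 6 loci together gave 45.1, 39.4, 42.1 and 37.6 TPM in *slmyb60Cr1*. They gave 53.5, 65.8, 60.8 and 66.4 TPM in *slmyb60Cr2*, against 120, 138, 82.4 and 80.2 TPM in the wild type. The 3 groups did not overlap, and *slmyb60Cr2* held 20.6 TPM more than *slmyb60Cr1* on average. Most of that gap lay at Solyc05g052670, which averaged 5.73 TPM in *slmyb60Cr1* and 25.0 TPM in *slmyb60Cr2*. Over Solyc05g052650, Solyc05g052670 and Solyc05g052680 the sum was 10.3 ± 1.87 TPM in *slmyb60Cr1*, 30.9 ± 6.59 TPM in *slmyb60Cr2* and 57.2 ± 15.7 TPM in the wild type, so that *slmyb60Cr1* kept 18.0% and *slmyb60Cr2* 54.0% of the wild type mean. In *slmyb60Cr2*, Solyc05g052670 was at 74.9% of the wild type mean, Solyc05g052650 at 19.3% and Solyc05g052680 at 26.1%. No p is attached to these sums because the loci were chosen with results known.

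Replicates 1 and 2 differed from replicates 3 and 4 at several of the loci, in a direction that was not the same for all. In the wild type, Solyc05g052650, Solyc05g052660, Solyc05g052670 and Solyc05g052680 were all lower in replicates 3 and 4, with Solyc05g052670 at 26.0 TPM on average against 40.8 TPM in replicates 1 and 2. In the edited lines Solyc05g052670 went the other way. It averaged 7.43 TPM in replicates 3 and 4 against 4.04 TPM in replicates 1 and 2 of *slmyb60Cr1*, and 29.8 TPM against 20.2 TPM in those of *slmyb60Cr2*. Solyc05g052680 was lower in replicates 3 and 4 of all 3 genotypes, and so was Solyc05g052640. The gap to the wild type at Solyc05g052670 was accordingly wider in one pair of replicates than in the other. Within replicates 1 and 2 its log2 fold change was −3.31 in *slmyb60Cr1* and −1.03 in *slmyb60Cr2*. Within replicates 3 and 4 it was −1.80 in *slmyb60Cr1* and 0.18 in *slmyb60Cr2*. Line against line, the gap moved less, at 2.28 within replicates 1 and 2 and 1.98 within replicates 3 and 4. For Solyc05g052650 the log2 fold change within replicates 1 and 2 was −3.38 in *slmyb60Cr1* and −3.56 in *slmyb60Cr2*, and within replicates 3 and 4 it was −2.41 and −1.27 in the same lines. These splits follow the first principal component and were made after the values had been seen, so they carry no test.

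**Figure D3:**
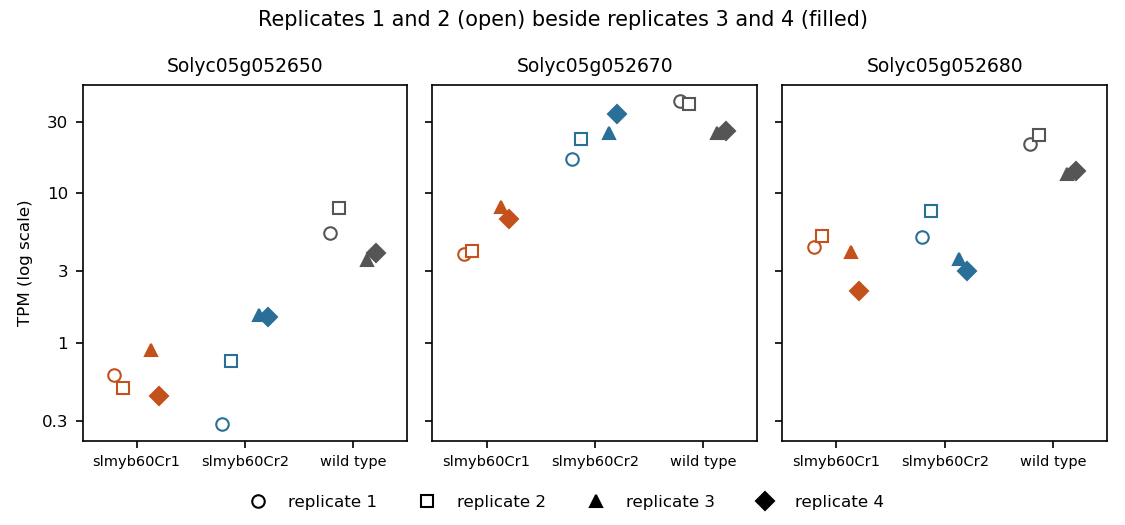
TPM (vertical axis, log scale) of Solyc05g052650, Solyc05g052670 and Solyc05g052680 by genotype, with replicates 1 and 2 as open and replicates 3 and 4 as filled markers. Solyc05g052670 is lower in the filled markers of the wild type (26.0 against 40.8 TPM on average) and higher in those of *slmyb60Cr1* (7.43 against 4.04 TPM) and *slmyb60Cr2* (29.8 against 20.2 TPM).

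Deviations from the genotype means over the 12 libraries describe the same pattern between loci. For Solyc05g052670 they correlated with those of Solyc05g052650 (r = 0.69) and had r = −0.20 with those of Solyc05g052680. Solyc05g052640 and Solyc05g052680 had r = 0.52. Against *SlMYB60*, whose own level was higher in replicates 3 and 4 of each genotype, the deviations of Solyc05g052640 had r = −0.92 and those of Solyc05g052680 had r = −0.56. Those of Solyc05g052650, Solyc05g052660, Solyc05g052670 and Solyc05g052690 had r of 0.11, −0.32, 0.16 and 0.13. These points share library, replicate number and scaling, and no p is given.

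The 10 rows of the table on each side of the cluster were set beside it. Of these 20 rows, 17 passed the TPM limit. limma called 0 in *slmyb60Cr1*, 0 in *slmyb60Cr2* and 0 between the lines, where 0.669%, 1.4% and 0.151% of all tested genes were called. At an unadjusted p below 0.05 there were 5 in *slmyb60Cr1*, 6 in *slmyb60Cr2* and 1 between the lines, where 17.1%, 23.1% and 14.5% of all tested genes had such a p in the same contrasts. Their log2 fold changes ran from −0.37 to 1.01 in *slmyb60Cr1* and from −0.52 to 0.51 in *slmyb60Cr2*, with medians of −0.03 and −0.10. In *slmyb60Cr1* 9 were below 0 and 8 above, and in *slmyb60Cr2* 12 were below and 5 above. The consecutive rows from Solyc05g052590 to Solyc05g052630, just before the cluster, had means at 69.3% to 93.4% of the wild type mean over both lines. Smaller changes passed the adjusted p alone at 3 loci, 1 of the 17 in *slmyb60Cr1* and 3 in *slmyb60Cr2*, beside 1.69% and 7.41% of all tested genes in the same lines. Solyc05g052750 was higher in both lines, with a log2 fold change of 0.88 (*slmyb60Cr1*, standard error 0.14, limma adjusted p = 0.0108) and 0.51 (*slmyb60Cr2*, standard error 0.14, adjusted p = 0.0474). In *slmyb60Cr2*, Solyc05g052790 was higher by 0.47 (standard error 0.09, adjusted p = 0.0112) and Solyc05g052590 fell by 0.37 (standard error 0.09, adjusted p = 0.0393).

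**Figure D4:**
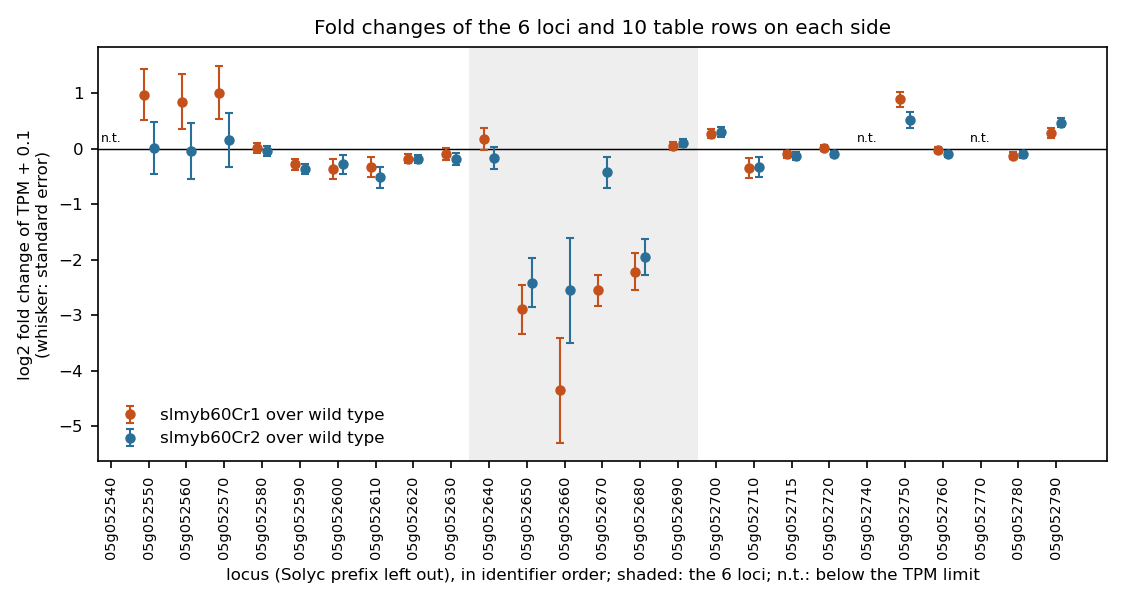
Log2 fold change of TPM + 0.1 over the wild type (vertical axis, whisker: standard error) in *slmyb60Cr1* and *slmyb60Cr2* for the 6 loci (shaded) and the 10 table rows on each side, in identifier order along the horizontal axis. Rows below the TPM limit are marked n.t., the 17 tested neighbours lie between −0.52 and 1.01, and Solyc05g052670 lies at −2.55 in *slmyb60Cr1* and −0.42 in *slmyb60Cr2*.

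Other BAHD acyltransferases of tomato were examined as a list of 11, of which 10 were in the table and 5 passed the TPM limit. limma called 0 of the 5 in either line and 0 between the lines. At an unadjusted p below 0.05 there was 1 in *slmyb60Cr1*, 1 in *slmyb60Cr2* and 0 between the lines. Of all tested genes, 0.669%, 1.4% and 0.151% were called in the same contrasts, and 17.1%, 23.1% and 14.5% had such an unadjusted p. With 5 genes these counts are near those shares, so nothing is read from them. *HQT*, which makes chlorogenic acid in tomato, was the most abundant at 167 ± 15.3 TPM in *slmyb60Cr1*, 177 ± 9.92 TPM in *slmyb60Cr2* and 184 ± 7.01 TPM in the wild type. *HCT*, a shikimate hydroxycinnamoyltransferase of the lignin pathway, averaged 23.8 ± 5.15 TPM in *slmyb60Cr1*, 24.2 ± 2.07 TPM in *slmyb60Cr2* and 30.02 ± 2.13 TPM in the wild type. The flavonoid acyltransferase *FdAT1* was at 89.5 ± 47.7 TPM in *slmyb60Cr1*, 133 ± 58.1 TPM in *slmyb60Cr2* and 73.8 ± 22.2 TPM in the wild type, and its libraries overlapped between all groups. *DCR*, needed for cutin in Arabidopsis, and *ASFT*, which feruloylates suberin in Arabidopsis, had log2 fold changes of −0.15 and 0.32 in *slmyb60Cr1* and of −0.27 and −0.46 in *slmyb60Cr2*. The acylsugar acyltransferases *ASAT2*, *ASAT3* and *ASAT4*, known from glandular trichomes, averaged below the TPM limit in every genotype, as did the alcohol acyltransferase *AAT1*. Solyc12g096790, which the study picked from these libraries as higher in both lines, did not reach 0.5 TPM in 4 libraries and was not tested. It averaged 0.425 TPM in *slmyb60Cr1*, 0.586 TPM in *slmyb60Cr2* and 0.115 TPM in the wild type. Its means were thus at 369% and 509% of the wild type mean, opposite in direction to the lower loci of the cluster, though at low levels. The median log2 fold change of the 5 tested genes was −0.15 in *slmyb60Cr1* and −0.27 in *slmyb60Cr2*.

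Genes of cutin assembly, a process that BAHD enzymes take part in, were also not called. They were *GPAT6* and *GPAT4* (glycerol-3-phosphate acyltransferases), *CD1* (cutin synthase) and *CYP86A69* (a fatty acid hydroxylase). limma called 0 of 4 in either line and between the lines, with 0, 1 and 0 at an unadjusted p below 0.05. Of all tested genes, 0.669%, 1.4% and 0.151% were called in the same contrasts, and 17.1%, 23.1% and 14.5% had such an unadjusted p. With 4 genes these counts are near those shares, so nothing is read from them. *CD1* had a log2 fold change of −2.03 (standard error 0.99, adjusted p = 0.327) in *slmyb60Cr1*, on levels of 0.586 ± 0.801 TPM in *slmyb60Cr1*, 1.36 ± 1.55 TPM in *slmyb60Cr2* and 2.04 ± 1.55 TPM in the wild type. The epidermal wax gene *CER6* averaged 300.3 TPM in *slmyb60Cr1*, 293 TPM in *slmyb60Cr2* and 300.4 TPM in the wild type. *CD2*, an epidermal regulator of cutin, averaged 58.8 ± 5.51 TPM in *slmyb60Cr1*, 56.0 ± 4.85 TPM in *slmyb60Cr2* and 75.8 ± 4.98 TPM in the wild type. Its log2 fold change was −0.37 in *slmyb60Cr1* (limma adjusted p = 0.0515) and −0.44 in *slmyb60Cr2* (limma adjusted p = 0.0126). The part of these epidermal genes in the levels of the cluster was not tested.

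**Figure D5:**
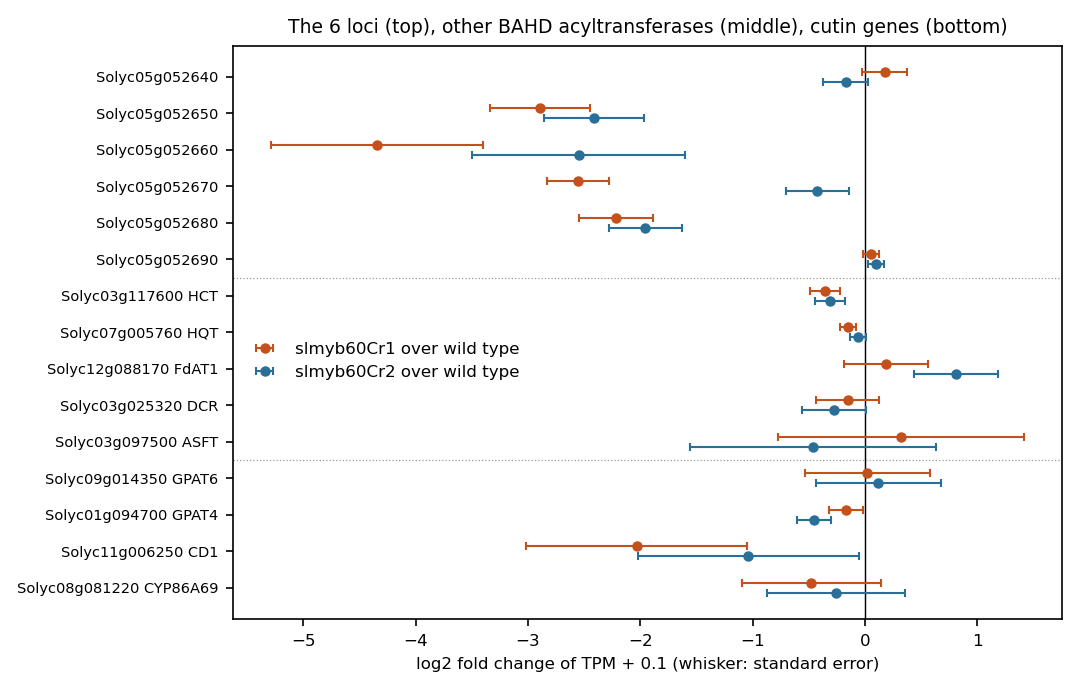
Log2 fold change of TPM + 0.1 over the wild type (horizontal axis, whisker: standard error) in *slmyb60Cr1* and *slmyb60Cr2* for the 6 loci, the 5 tested BAHD acyltransferases from elsewhere in the genome and the 4 cutin genes. The 5 other acyltransferases lie between −0.46 and 0.81, and *CD1* lies at −2.03 in *slmyb60Cr1* with a standard error of 0.99.

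Among all tested genes outside the cluster, those with levels most like each locus over the 12 libraries were sought by Pearson's r of log2(TPM + 0.1), which is given as a description because the libraries share genotype and scaling. For Solyc05g052670 the closest was Solyc04g082280 (r = 0.97), at 4.65 ± 0.685 TPM in *slmyb60Cr1*, 13.1 ± 3.93 TPM in *slmyb60Cr2* and 15.9 ± 2.82 TPM in the wild type. Its mean was also low in *slmyb60Cr1* alone, and the next closest 2 genes had r of 0.95 and 0.93. For Solyc05g052650 the closest was Solyc01g009430 (r = 0.96), at 72.6 ± 7.83 TPM in *slmyb60Cr1*, 81.1 ± 20.9 TPM in *slmyb60Cr2* and 133 ± 12.5 TPM in the wild type. For Solyc05g052680 it was Solyc06g050760 (r = 0.97), at 231 ± 19.3 TPM in *slmyb60Cr1*, 239 ± 36.9 TPM in *slmyb60Cr2* and 420 ± 57.8 TPM in the wild type. The means of both these genes were lower in both lines. Ranked in the same way, Solyc05g052680 was gene 142 in likeness to Solyc05g052650 (r = 0.82) and gene 1186 to Solyc05g052670 (r = 0.59), and Solyc05g052650 was gene 285 in likeness to Solyc05g052670 (r = 0.73). The closest genes were found by a search over all tested genes, so their r cannot be set against that of a given pair. None of these genes is paired with a name in the sources used here.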

How the data were processed

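Poly(A) RNA of 12 leaf libraries was assigned to genotype and replicate by the labels. The authors trimmed paired-end reads with fastp, estimated levels with Salmon on ITAG 4.0 transcripts with GC and sequence bias corrections, and deposited the estimates as TPM for each library, although the table is named for counts. The authors ran DESeq2 on estimated reads, and TPM does not allow that model. Here log2(TPM + 0.1) was fitted with limma 3.58.1 (R 4.3.3, intensity trend, genotype only, all 12 libraries, Benjamini-Hochberg adjustment) for 21218 genes. The other 12758 genes did not reach 0.5 TPM in 4 libraries. The script was tested on simulated data. Members, lists and tests were chosen with earlier results of these data known. The text names all 6 loci, the edited gene, listed genes, the nearest and the changed neighbours, and the most similar genes, of which only the closest by level are printed. Gene names on the lists come from general knowledge of tomato. Alternatives covered the libraries fitted, replicate block, TPM limit, pseudocount, scaling, trend, thresholds and each library left out. No 2 libraries held identical values. Where replicates were not grown separately, p-values measure only the spread between these libraries. Sequences of the loci were not used here. Figures were drawn with matplotlib 3.10.9.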

Additional observations from a re-analysis of the deposited data

Results flagged for a closer look

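The level of Solyc05g052670 differed between the edited lines, with a log2 difference, *slmyb60Cr2* minus *slmyb60Cr1*, of 2.13 (limma adjusted p = 0.0153, range 0.0115 to 0.0541 over the alternatives). The locus was part of the selection, and choosing it for low levels, which it had in *slmyb60Cr1*, also favours this difference. It had been singled out with its values known, so the p is not independent evidence. The edit cannot be told apart from any other difference between the lines. The locus averaged 5.73 TPM in *slmyb60Cr1*, 25.0 TPM in *slmyb60Cr2* and 33.4 TPM in the wild type. *SlMYB60* itself was at 2.19 ± 0.501 TPM in *slmyb60Cr1* and 2.70 ± 0.405 TPM in *slmyb60Cr2*. Of 21 groups of 4 libraries tested for an outlying library, 0 had one.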

How the results depend on the processing

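Genes called in *slmyb60Cr1* numbered 142, or 94 when only the compared genotypes were fitted, 358 by adjusted p alone and 79 to 295 with a library left out, highest without *slmyb60Cr1* replicate 1 and lower by over 1.5 times without *slmyb60Cr1* replicates 2, 3 or 4 or wild type replicates 2 or 4 (94, 92, 81, 86 and 79). In *slmyb60Cr2* they numbered 298, or 197 with a pseudocount of 1, 1573 by adjusted p alone and 188 to 356 with a library left out (195 without *slmyb60Cr2* replicate 2 and 188 without its replicate 4). Between the lines they numbered 32, or 9 with only the compared genotypes, 108 by adjusted p alone and 8 to 35 with a library left out (8 and 19 without *slmyb60Cr1* replicates 2 and 3, and 9, 13 and 15 without *slmyb60Cr2* replicates 2, 3 and 4). By adjusted p alone, 1 chromosomal neighbour passed in *slmyb60Cr1* and 3 in *slmyb60Cr2*. With genes above 0 TPM in any library tested, 1 other BAHD acyltransferase, Solyc12g096790, was called in *slmyb60Cr2*. With median-of-ratios scaling, the difference of Solyc05g052690 between the lines was −0.015 in place of 0.05. The replicate numbers were not treated as pairs, because the labels name nothing that same-numbered libraries share and not every correlation of their deviations was over 0.1. It was over 0.1 in 8 of 12 (range −0.05 to 0.44, and in all 3 for replicates 1 and for replicates 3), and 5 of 12 libraries correlated best with their own number. With the replicate block, 210 genes were called in *slmyb60Cr1*, 373 in *slmyb60Cr2* and 52 between the lines. The summed TPM of the 6 loci differed between the lines by 20.57 with or without the block, and by 18.99 to 23.28 with a library left out.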
